A study of Mus musculus with 2 samples.

Results

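Nefl, Nefm, Nrgn, Mef2c, S100a10, Arhgdig, Sorcs1 and Ncam2 were taken as a set of 8 neuronal maturation genes. Each was found by symbol as 1 feature among the 28001 features of the deposited single-cell count matrices. The genes were selected on their summed level in excitatory neurons, which was lower in the Gmnc knockout library. That difference is therefore described below and supports nothing. The cells are from mice of strain C57BL/6J at postnatal day 0, dissected from cortex (lateral and dorsal) with hippocampus on either side of the brain. The wild-type library and the Gmnc-/- library each pooled 4 animals, littermates of the other genotype, from 2 litters. Both libraries gave UMIs (unique molecular identifiers, counts of captured RNA molecules) of the reporter sequences Stop-Ai9 and Tomato, and the sources used here name no reporter allele. They do not give the deleted part of Gmnc either.

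Neurons that leave the germinal zones extend an axon, fill it with neurofilaments, build synapses and take on the identity of a cortical layer. Nefl and Nefm encode the light and the medium neurofilament subunit. Nrgn encodes neurogranin, a postsynaptic protein that holds calmodulin when calcium is low. Mef2c is a MADS-box transcription factor of maturing cortical neurons and also acts in microglia. S100a10, also called p11, is the partner of annexin A2 and is known from a set of layer 5 pyramidal neurons. Arhgdig encodes a GDP-dissociation inhibitor, Sorcs1 a sorting receptor with a VPS10 domain, and Ncam2 a neural cell adhesion molecule with immunoglobulin domains.

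Promoter sequences were at hand for 4 of the 8 genes, from RefSeq on GRCm38.p6, and 1 per gene is shown because the genes were selected as lower together. Each line runs 5′ to 3′ and ends at the base before the first annotated exon. They cover Mef2c (chr13:83503784-83504033, plus strand), Sorcs1 (chr19:50678647-50678896, minus strand), Ncam2 (chr16:81200447-81200696, plus strand) and Nrgn (chr9:37552905-37552995, minus strand). Capitals mark matches on either strand to CCAAT (the CCAAT box), GGGCGG (the GC box) or TATAAA (the TATA box).
Mef2c: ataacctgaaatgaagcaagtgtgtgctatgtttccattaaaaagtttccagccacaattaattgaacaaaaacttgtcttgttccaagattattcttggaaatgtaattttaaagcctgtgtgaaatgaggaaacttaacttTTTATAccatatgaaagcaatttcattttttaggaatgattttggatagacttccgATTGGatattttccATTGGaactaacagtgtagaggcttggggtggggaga
Sorcs1: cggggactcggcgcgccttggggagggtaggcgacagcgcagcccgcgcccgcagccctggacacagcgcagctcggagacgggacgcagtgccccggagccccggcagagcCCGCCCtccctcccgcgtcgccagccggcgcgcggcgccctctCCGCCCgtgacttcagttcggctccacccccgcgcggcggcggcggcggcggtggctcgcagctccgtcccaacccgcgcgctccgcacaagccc
Ncam2: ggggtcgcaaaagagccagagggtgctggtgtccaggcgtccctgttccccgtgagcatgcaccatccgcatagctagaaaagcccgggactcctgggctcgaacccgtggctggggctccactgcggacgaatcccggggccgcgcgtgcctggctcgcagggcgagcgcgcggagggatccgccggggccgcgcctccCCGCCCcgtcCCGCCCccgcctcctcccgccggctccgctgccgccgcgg
Nrgn: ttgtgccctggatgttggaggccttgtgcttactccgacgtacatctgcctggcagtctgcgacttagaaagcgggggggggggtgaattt
The sequences differ in make-up. That of Mef2c is 33.6% G and C and holds 2 matches to CCAAT and 1 to TATAAA. The 4 genes have 6 listed promoters. Those of Mef2c that are not shown (67 and 250 bases) are 50.7% and 49.6% G and C and hold none of the motifs. Those of Sorcs1 (79.6%) and Ncam2 (75.2%) hold 2 matches to GGGCGG each, and that of Nrgn (57.1%) holds none of the motifs. The median over 32851 promoters is 52.4%. Of all promoters over 250 bases, 33.8% hold CCAAT, 32.7% GGGCGG and 12.4% TATAAA. Over the first 91 of these bases, the part of its window shown for Nrgn, the shares are 12.3%, 9.42% and 4.8%. Those are the bases of each window farthest from its start. TGACG, held by 17.8% of promoters over 250 bases, and a MEF2-type site, held by 3.2%, were searched too and are in none of the windows shown. The matches describe letters only.

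The wild-type library held 13033 barcodes with 88905819 UMIs and the knockout library 27663 barcodes with 155482657 UMIs, and 85 barcode sequences occurred in both. After filtering, 460 wild-type (4.21%) and 4994 knockout cells (19.1%) were removed as doublets, which left 10478 and 21184 cells. Gmnc, the regulator of multiciliated cells that was deleted, gave 69 and 125 UMIs, so its reads do not check the labels. From 9 markers, none of them at 0, 2265 wild-type and 5185 knockout cells were called excitatory neuron-like. Their median depth was 5141 and 4156 UMIs per cell, and the markers summed to 2129 and 2206 CPM (UMIs of a gene per 1000000 UMIs summed over the cells in question). With 1 library per genotype no difference has a replicate check and no test was made. Ranges after a value are 95% intervals for counting error alone, and cells are not replicates.

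Over all excitatory neuron-like cells both neurofilament genes were lower in the knockout library. Nefl (chr14:68083863-68089095, plus strand) stood at 68.1 CPM (63.9 to 72.5) in wild-type and 24.5 CPM (22.6 to 26.6) in knockout cells, 2.77-fold lower (2.5 to 3.08). Nefm (chr14:68082590-68124846, minus strand) stood at 45.9 CPM (42.4 to 49.5) in wild-type and 34.1 CPM (31.8 to 36.5) in knockout cells, 1.35-fold lower (1.21 to 1.49). The annotated Nefl and Nefm genes overlap on opposite strands, and whether strand was used in counting is not given in the sources used here.

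Nrgn, S100a10 and Arhgdig had wider gaps than Nefm. Nrgn (chr9:37544492-37552904, minus strand) stood at 249 CPM (241 to 257) in wild-type and 105 CPM (101 to 109) in knockout cells, 2.37-fold lower (2.25 to 2.5). S100a10 (chr3:93555080-93564643, plus strand) stood at 125 CPM (119 to 131) in wild-type and 34.7 CPM (32.3 to 37.1) in knockout cells, 3.6-fold lower (3.31 to 3.91), the largest fold of the 8. Arhgdig (chr17:26199183-26207786, minus strand) stood at 76 CPM (71.5 to 80.6) in wild-type and 35.4 CPM (33.1 to 37.9) in knockout cells, 2.14-fold lower (1.96 to 2.35). Arhgdig overlaps Rgs11 on the other strand, with the same limit as for the neurofilament genes.

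The transcription factor and the surface proteins differed by less. Mef2c (chr13:83504034-83667080, plus strand) stood at 1130.4 CPM (1113 to 1148) in wild-type and 689 CPM (678 to 699) in knockout cells, 1.64-fold lower (1.61 to 1.68). Sorcs1 (chr19:50143299-50678646, minus strand) stood at 177 CPM (170.4 to 184) in wild-type and 113 CPM (109 to 118) in knockout cells, 1.56-fold lower (1.48 to 1.65). Ncam2 (chr16:81200697-81626828, plus strand) stood at 195 CPM (188 to 203) in wild-type and 140.1 CPM (135 to 145) in knockout cells, 1.39-fold lower (1.32 to 1.47). In these bulk sums fewer cells of a type and less RNA per cell cannot be told apart. Over all cells of each library, whatever their class, 5 of the genes were lower (34.4% of all genes were), and Nefm (15.4 and 22.4 CPM), Sorcs1 (119 and 129.7 CPM) and Ncam2 (189 and 248 CPM) were higher in the knockout library. Excitatory neuron-like cells held 18.6% of the wild-type UMIs of Ncam2, 26.9% of Sorcs1 and 27.1% of S100a10. For the other genes that share ran from 53.7% (Nefm) to 81.6% (Nefl). Ependymal-like cells (159 wild-type and 43 knockout) held 13.4% and 0.198% of the Arhgdig UMIs of their libraries. Arhgdig stood there at 80.9 and 8.85 CPM, from 241 and 3 UMIs, while Ncam2 was higher, at 128 and 378 CPM. That class has too few knockout cells for the comparison of other classes below. Its part in the values over all cells was not tested. Shares given for all genes are over genes with 50 CPM or more in 1 of the libraries, and counts of the 8 have no minimum unless one is named.

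The log2 ratio of knockout to wild-type level, computed after adding 5 CPM, ran from -1.71 for S100a10 to -0.38 for Nefm, with a median of -0.86. That median was 0.16 with doublets kept and 0.11 at a coarser clustering, settings in which the cells called layer 5-like below lay in clusters left unnamed. This scale understates the change of low genes. The median of 4281 genes that reached 50 CPM in 1 of the libraries was 0.11. Of those genes 37.6% were lower and 4.09% were 1.5-fold or more lower, where 8 and 6 of the 8 were. Nothing is read from these counts, since this comparison chose the genes. Nefm missed 50 CPM, and Nefl, S100a10 and Arhgdig reached it through the wild-type value alone.

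The ratio also differed with gene length, and the libraries differed in their mitochondrial share. Among the 856 shortest genes (up to 11.1 kb), which include Nefl, Nrgn, S100a10 and Arhgdig, the median log2 ratio was -0.23 and 74.8% were lower. Among the 856 longest (from 134 kb), which include Mef2c, Sorcs1 and Ncam2, the median was 0.15 and 23.9% were lower. Mitochondrial genes took 3.66% of wild-type and 1.28% of knockout excitatory UMIs. The part of length, mitochondrial share or cell state in the ratios of the 8 genes was not tested.

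**Figure D1:**
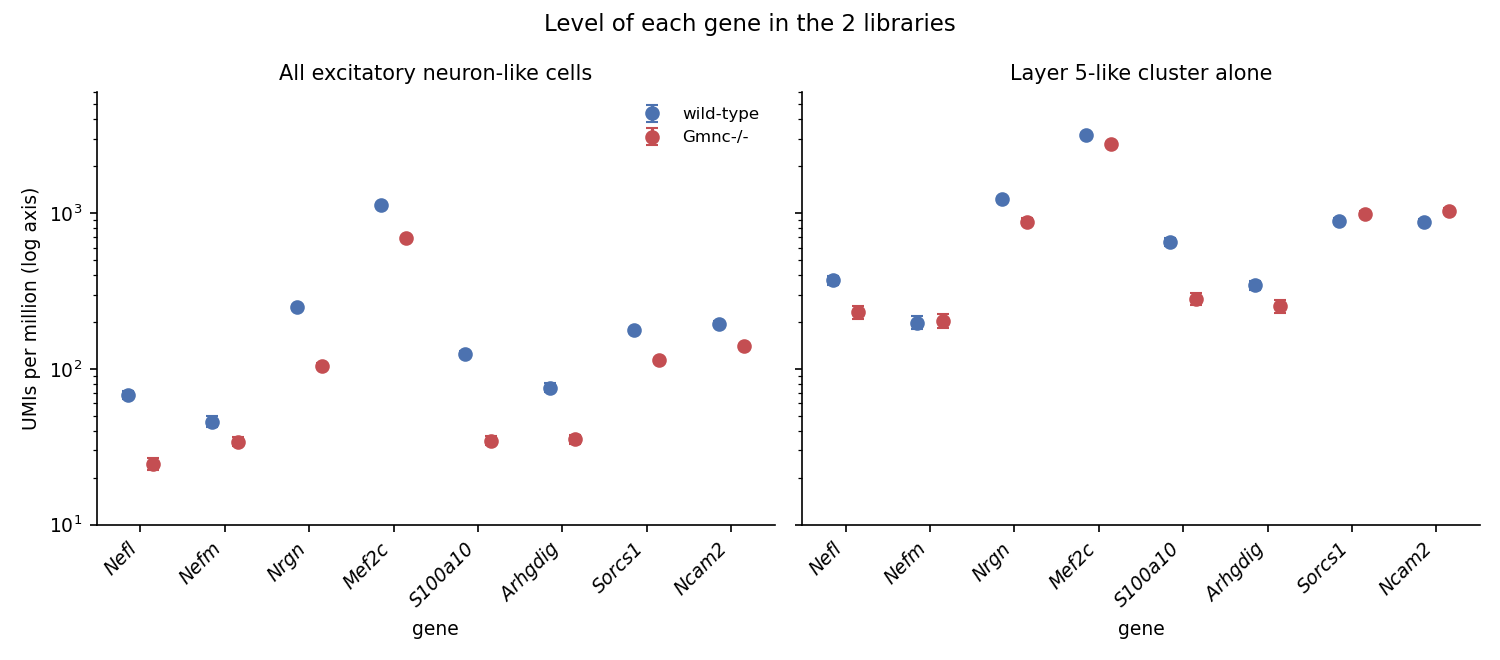
UMIs of each gene in CPM (log axis) in the wild-type (blue) and the Gmnc-/- library (red), over all excitatory neuron-like cells on the left and in the layer 5-like cluster on the right, with 95% Poisson intervals for 1 library each. All genes are lower in the knockout library on the left, and Nefm, Sorcs1 and Ncam2 are not lower on the right.

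In the wild-type library most excitatory molecules of these genes, Mef2c apart, came from few cells. The excitatory cells were clustered again without the 8 genes, which gave 17 clusters. Cluster 12 scored highest for the layer 5 markers Fezf2, Bcl11b, Ldb2, Etv1, Pcp4, Sox5, Fam84b and Crim1 and is called layer 5-like. None of those markers was among its 10 leading genes by fold, which included Nrgn, Ncam2 and Sorcs1. It held 83 wild-type cells, 3.66% of the class, and 128 knockout cells, 2.47%. The median depth of these cells was 24812 UMIs for wild-type and 10864.5 for knockout ones. They gave 14.9% of class UMIs in the wild-type library, against 7.18% for the knockout. When doublets were kept, the cluster that held these cells had 26 of 511 wild-type cells (5.09%) and 266 of 974 knockout cells (27.3%) called doublets, and the part of doublet removal in the depth and number of layer 5-like cells was not tested.

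The layer 5-like cells carried 81% and 67.5% of the Nefl UMIs of wild-type and knockout excitatory cells. In the same order they carried 78.2% and 58.1% of S100a10, 74.6% and 62.7% of Sorcs1 and 73.5% and 60.5% of Nrgn. The shares were 67.4% and 51.4% for Arhgdig, 66.8% and 53% for Ncam2, 64.4% and 42.8% for Nefm and 42.2% and 28.9% for Mef2c. Every share was above the cluster's share of all UMIs and was lower in the knockout library. A class sum of these genes therefore weighs how many layer 5-like cells each pool held and how deep they were. Cluster 9, led by Glis3, Nwd2 and Ccbe1, carried 40.2% and 37.6% of Mef2c.

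**Figure D2:**
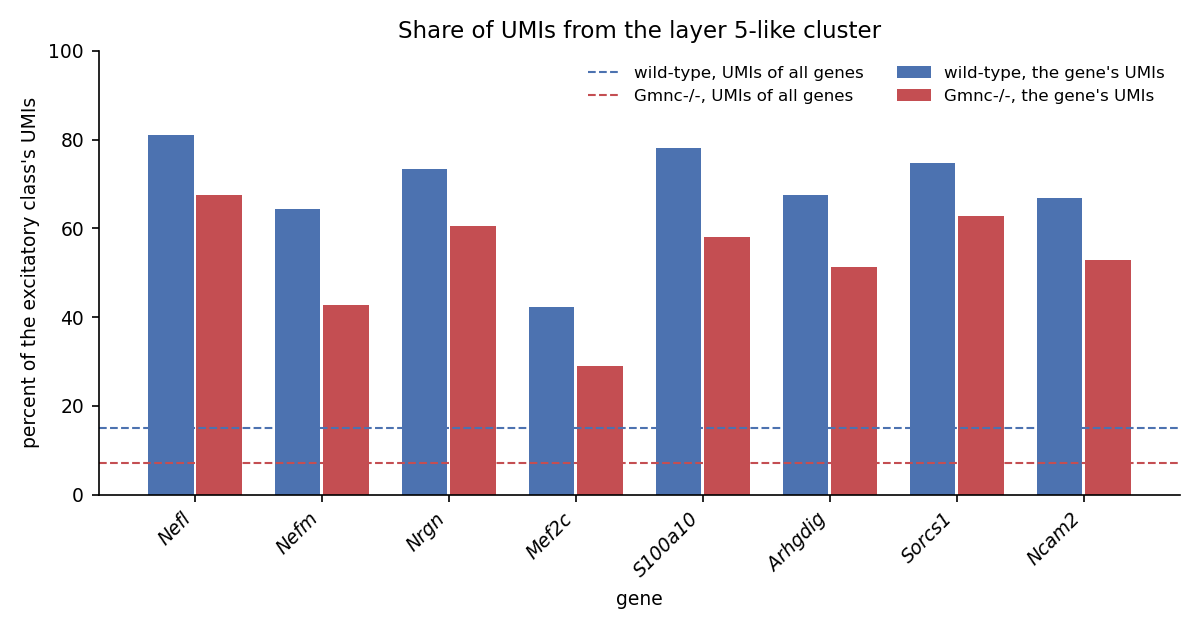
Percent of the excitatory class's UMIs of each gene that came from the layer 5-like cluster in the wild-type (blue) and the Gmnc-/- library (red), with dashed lines for all genes (14.9% and 7.18%). Each bar is 1 library, stands above its dashed line and is shorter for the knockout library.

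Within the layer 5-like cluster the genes parted. S100a10 stood at 654 CPM (619.9 to 689) in wild-type and 280.2 CPM (256 to 306) in knockout cells, 2.33-fold lower (2.1 to 2.59). Nefl stood at 369.9 CPM (344 to 397) in wild-type and 230.4 CPM (208 to 254) in knockout cells, 1.61-fold lower (1.42 to 1.82). Nrgn, at 1226 and 884 CPM, was 1.39-fold lower (1.3 to 1.48). For all 3 the intervals of the fold lay above 1. Arhgdig, at 343 and 253 CPM, was 1.36-fold lower (1.2 to 1.53), and Mef2c, at 3197 and 2771 CPM, was 1.15-fold lower (1.11 to 1.2). Nefm, at 198 and 203 CPM, had a knockout to wild-type ratio of 1.02 (0.886 to 1.18), within counting error. The ratio was 1.12 (1.04 to 1.19) for Sorcs1, at 887 and 989 CPM, and 1.18 (1.11 to 1.26) for Ncam2, at 875 and 1032 CPM, so the summed level of both was higher in the knockout library. In all 5 of the 8 genes were lower here, as were 38.1% of all genes.

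Single cells of the layer 5-like cluster varied widely. The median of S100a10 was 319 CPM (quartiles 0 and 810.3) over wild-type and 42.7 CPM (quartiles 0 and 337) over knockout cells. That of Mef2c was 2939 CPM (1849 and 3982) and 2521 CPM (1537 and 3660.0). The quartile ranges overlapped for both genes. Sorcs1 had a higher sum in the knockout library but a lower median, 258 CPM (0 and 1074) over wild-type and 41.6 CPM (0 and 846) over knockout cells, with a UMI in 71.1% and 51.6% of them before thinning. The median of Ncam2 was 773 and 975 CPM, in the order of its sums. Depth differed, so the cells were also thinned to 5000 UMIs, which kept 75 wild-type and 97 knockout cells. S100a10 was then 2.1-fold lower (1.66 to 2.67), Nefl 1.42-fold (1.06 to 1.9), Mef2c 1.21-fold (1.11 to 1.31) and Nrgn 1.19-fold (1.03 to 1.37). The interval of Arhgdig held 1, with 1.22-fold (0.928 to 1.61). The ratio was 1.55 (1.34 to 1.8) for Sorcs1, 1.24 (0.89 to 1.75) for Nefm and 1.04 (0.911 to 1.19) for Ncam2.

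Across the 14 clusters with 50 or more cells in both libraries, the layer 5-like one included, the values had a median log2 ratio of -0.01. Of 112 gene-by-cluster values 60 were lower in the knockout library, but 46 rest on fewer than 10 UMIs in a library. At 50 CPM or more stood 42 values, 14 of them of Mef2c, with a median of -0.24. Of these 42, 29 were lower (42.3% over all genes at that minimum) and 9 were 1.5-fold or more lower (6.5% over all genes). The interval of the ratio lay below 1 for 17 of them (14.2% over all genes) and above 1 for 7 (21.9% over all genes). These cells are the ones in which the genes were chosen, so the counts are a description. With no minimum, the interval lay below 1 in 6 of 14 clusters for S100a10, in 5 for Mef2c, in 3 each for Nrgn and Arhgdig and in 2 for Nefl. It lay above 1 in 5 and below 1 in 2 for Sorcs1, above 1 in 3 and below 1 in 1 for Ncam2, and above 1 in 1 for Nefm.

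Some clusters show the range. In the layer 6 corticothalamic-like cluster Mef2c stood at 1618 and 1615 CPM and Ncam2 at 308 and 318 CPM, within counting error. Cluster 9, which has no name, had Mef2c at 4630.3 and 3979 CPM, 1.16-fold lower (1.12 to 1.21). S100a10 was 1.84-fold lower (1.45 to 2.35) in cluster 9 and Nefl 1.79-fold (1.31 to 2.46). In that same cluster Nrgn (301 and 360.0 CPM) and Ncam2 (230.0 and 353 CPM) were higher in the knockout library. Cluster 13, also without a name, had 68 wild-type and 130 knockout cells and was lower for all 8 genes, 4 of them with the interval below 1, against 46.7% of all genes. Its Nrgn was 3.11-fold lower (2.48 to 3.94) and its Arhgdig 5.71-fold (3.39 to 10.2). Few cells of cluster 13 carried these UMIs. For Nrgn, the 314 wild-type UMIs lay within 19.1% of its cells and the 100 knockout UMIs within 6.92%. For Arhgdig the wild-type count was 98 (16.2% of cells) and the knockout count 17 (6.92%). The intervals leave out this spread between cells. In the migrating young-like cluster S100a10 gave 14 and 28 UMIs, or 7.44 and 8.34 CPM. Its knockout to wild-type ratio there was 1.12 (0.571 to 2.3), within counting error.

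**Figure D3:**
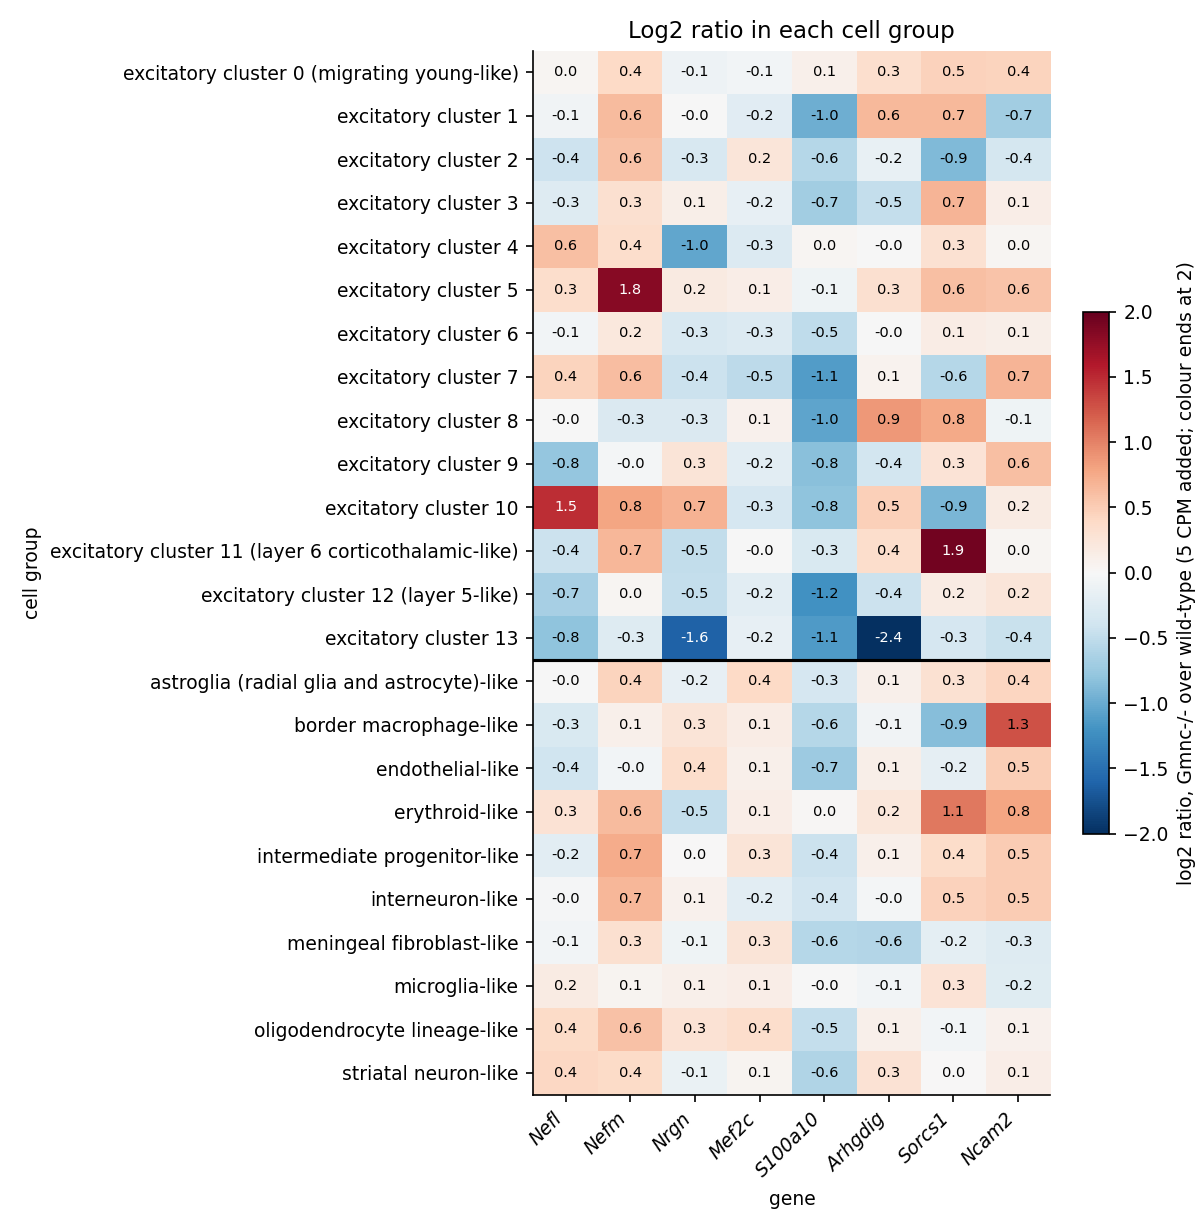
Log2 ratio of the Gmnc-/- over the wild-type library for each gene (columns) in 14 excitatory clusters and 10 other classes (rows), from sums over 1 library per genotype with 5 CPM added. Blue is lower and red higher in the knockout library, and the S100a10 column holds the most blue cells.

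The class value changed with how cells were weighed. These settings use the cells in which the genes were chosen, so their counts are a description. Without the layer 5-like cluster the median log2 ratio was -0.54, with 7 genes lower (37.8% of all genes). With knockout clusters weighed by their wild-type share of UMIs it was -0.29, with 5 lower (36.5% of all genes). With equal weight for each cell it was -0.47, with 7 lower (37.6% of all genes). With every cell thinned to 2000 UMIs it was -0.33, with 7 lower (39.7% of all genes). S100a10 gave -0.84, -1.05, -1.10 and -1.01 in these settings. After reweighting Nefl was at -0.60, Nrgn at -0.41, Arhgdig at -0.40 and Mef2c at -0.17, and Nefm (0.14), Sorcs1 (0.17) and Ncam2 (0.22) were above 0.

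The pools also held cells of both sexes, told by Xist and Y-linked UMIs. Female-pattern cells (1590 wild-type and 2525 knockout) had 8 genes lower and a median of -0.94 (38.3% of all genes were lower). Male-pattern cells (374 and 1200) had 2 lower, Mef2c and S100a10, and a median of 0.45 (38% of all genes were lower). In the layer 5-like cluster male-pattern cells numbered 6 for wild-type and 33 for knockout, and female-pattern cells 69 and 66. The part of these numbers in the difference between the patterns was not tested. Nrgn stood at 314 and 119.6 CPM in female-pattern and at 34.8 and 87.8 CPM in male-pattern cells. Sorcs1 stood at 200.5 and 112 CPM and at 49 and 117 CPM. The order of the genotypes was thus opposite between the patterns for both genes. Cells carry no mark of the animal they came from, so single animals within a pool cannot be told apart.

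**Figure D4:**
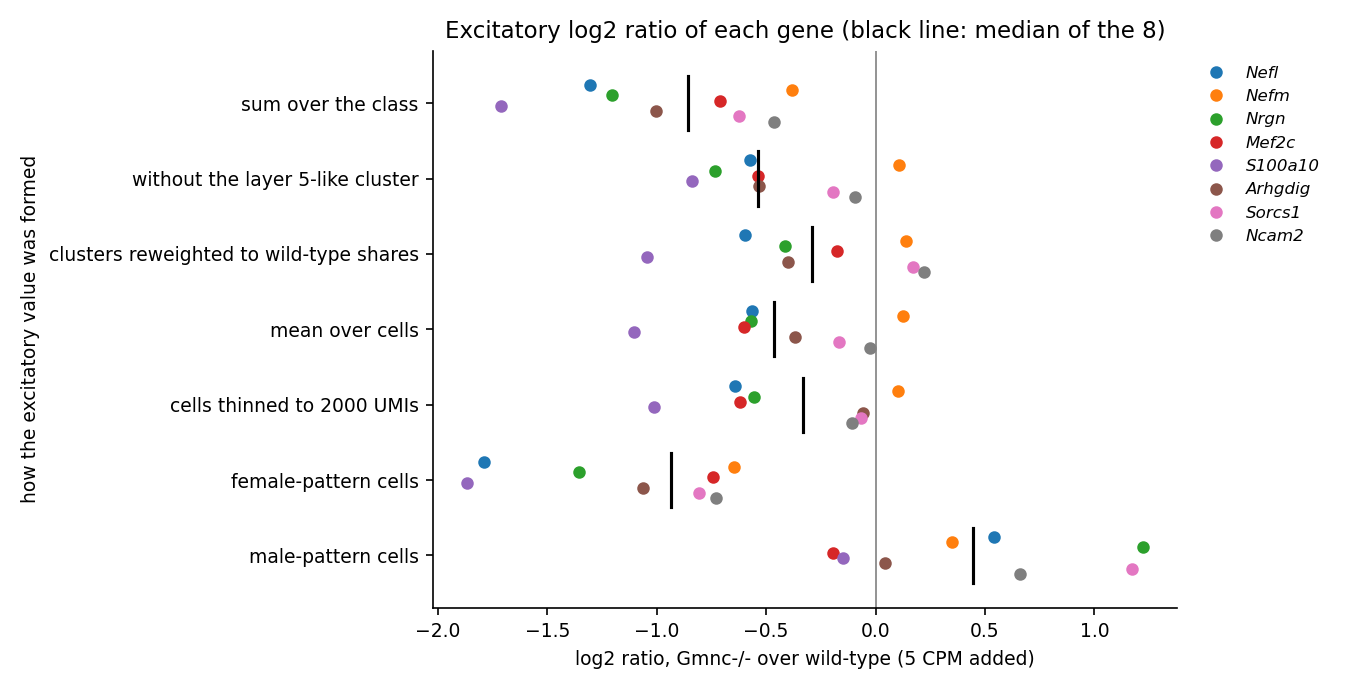
Log2 ratio of the Gmnc-/- over the wild-type library in excitatory neuron-like cells for each gene (points) and the median of the genes (black line), for 7 ways of forming the value (rows), each from 1 library per genotype. The median runs from -0.94 in female-pattern to 0.45 in male-pattern cells.

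Shares of cells with a UMI were compared at 2000 UMIs per cell, which kept 1955 wild-type and 4400 knockout excitatory cells and left out 310 and 785. S100a10 had a UMI in 5.78% (4.79 to 6.91) of cells in the wild-type library and 3.0% (2.52 to 3.55) in the knockout one, and Nrgn in 6.8% (5.73 to 8.01) of cells in the wild-type library and 4.61% (4.01 to 5.28) in the knockout one. Mef2c had one in 38% (35.8 to 40.1) of cells in the wild-type library and 31.5% (30.2 to 32.9) in the knockout one. For these 3 genes the intervals of the libraries did not overlap. Nefl (2.97% and 1.89%), Nefm (3.38% and 3.93%), Arhgdig (3.63% and 3.59%), Sorcs1 (7.47% and 6.02%) and Ncam2 (8.8% and 7.41%) had intervals that overlapped. Without thinning the shares were 11.1% and 6.19% for S100a10, 10.6% and 6.9% for Nrgn and 53% and 43.9% for Mef2c.

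Erythroid-like cells, which should lack neuronal RNA, gave the background of free RNA at the same depth (242 and 437 cells, with medians of 6414.5 and 4745 UMIs before thinning, against 5827 and 4544.5 in excitatory cells). S100a10 had a UMI there in 2.89% (1.17 to 5.87) of cells in the wild-type library and 1.83% (0.794 to 3.58) in the knockout one. The excitatory share of S100a10 lay inside that background interval in both libraries. The erythroid-like shares rest on 7 of 242 and 8 of 437 cells, so their intervals are wide. The shares at this depth thus cannot tell whether S100a10 stood above background in either library. Without thinning its summed level was 125 CPM (119 to 131) and 34.7 CPM (32.3 to 37.1) in excitatory neuron-like cells. In erythroid-like cells it was 12.6 CPM (8.19 to 18.7) and 12.9 CPM (8.86 to 18.1). Nrgn had a UMI in 2.07% (0.674 to 4.76) of cells in the wild-type library and 1.6% (0.646 to 3.27) in the knockout one, and Mef2c in 9.5% (6.12 to 13.9) of cells in the wild-type library and 7.32% (5.06 to 10.2) in the knockout one. Their excitatory shares lay above these intervals in both libraries. Nefl had a UMI in 0.413% of wild-type erythroid-like cells and in 0 of 437 knockout ones, which allows up to 0.686% by a limit of 3 counts of the total and 0.841% by the Clopper-Pearson bound. Excitatory cells with UMIs of 3 or more of the genes made up 6.5% (5.44 to 7.68) for wild-type, against 4.39% (3.8 to 5.03) for knockout.

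A maturation score, later minus earlier neuronal genes in thinned cells, cut the excitatory cells into an early, a middle and a late group. These are ranges and not cell types, and 773 of 6355 cells lay within 1 UMI of a boundary. The genes had a median log2 ratio of 0.11 in the early group, with 3 lower (36.9% of all genes). The middle group had -0.59 (-1.75 when cells were thinned to 1000 UMIs), with 6 lower (39.3% of all genes), and the late group -0.70, with 8 lower (37.7% of all genes). In the late group Mef2c stood at 2554 and 1822 CPM, Nrgn at 592 and 307 CPM and S100a10 at 288 and 89.7 CPM. In the early group they stood at 93.4 and 89.7 CPM, 8.05 and 6.85 CPM and 8.05 and 8.33 CPM. The late group took 36.2% of the scored wild-type cells, against 31% for knockout. For Nefl, the late group largely restates the layer 5-like cluster. Of 968 wild-type Nefl UMIs in the class, 942 lay in the late group and 784 in that cluster. Of 584 knockout ones, 526 and 394 did. No late-group value is given without the layer 5-like cells.

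In 10 other classes with 100 or more cells in both libraries the genes went different ways. Of 80 values 31 were lower in the knockout library, and 25 rest on fewer than 10 UMIs in a library. At 50 CPM or more stood 19, all of Mef2c, S100a10, Sorcs1 or Ncam2, and 5 of these were lower (36% over all genes at that minimum). The interval of the ratio lay below 1 for 4 of them (20.5% over all genes) and above 1 for 10 (42.1% over all genes). With no minimum, S100a10 was lower in 9 classes, 7 of them with the interval below 1. It stood at 1054 and 711 CPM in meningeal fibroblast-like cells, 1.48-fold lower (1.36 to 1.61), and at 92.9 and 69.9 CPM in interneuron-like cells, 1.33-fold lower (1.23 to 1.43). It was at 49.4 and 30.7 CPM in striatal neuron-like and at 138 and 90.6 CPM in border macrophage-like cells.

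Ncam2 and Nefm were higher in most of these classes. Over all genes at 50 CPM or more, 36% of values there were lower and 42.1% had the interval above 1. The counts of each gene that follow have no minimum, and nothing particular to these genes is read from them. Ncam2 was higher in 8 of 10, 7 with the interval above 1, with 264 and 378 CPM in interneuron-like and 236 and 321 CPM in astroglia-like cells. Its highest level among these classes was in oligodendrocyte lineage-like cells, at 552 and 589 CPM. Nefm was higher in 9, 4 with the interval above 1, and stood at 23.7 and 40.5 CPM in interneuron-like cells. Sorcs1 was higher in 6 classes, 4 with the interval above 1, and lower in 4 (endothelial, border macrophage, meningeal fibroblast and oligodendrocyte lineage), 0 with the interval below 1. It stood at 75 and 105 CPM in interneuron-like cells and at 196 and 243 CPM in astroglia-like cells. Mef2c, which also acts in immune cells, stood at 797 and 874 CPM in microglia-like and 728 and 806 CPM in border macrophage-like cells, its highest levels among these classes. In interneuron-like cells Mef2c was lower, at 135 and 115 CPM. For Nefl, Nrgn and Arhgdig the interval held 1 in all 10 classes, in none of which they reached 50 CPM. Unnamed cluster 18 (349 and 361 cells), led by Arhgdig and Nrgn, is not among these classes. Nrgn stood there at 75.2 and 136 CPM, with a ratio of 1.8 (1.37 to 2.39). Arhgdig stood at 40.5 and 76.3 CPM, with a ratio of 1.88 (1.29 to 2.77). In that cluster the interval also lay above 1 for Nefl, Nefm and Mef2c. It lay below 1 for S100a10 and held 1 for Sorcs1 and Ncam2.

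Other genes of these pathways were read in excitatory neuron-like cells from lists, for genes at 20 CPM or above in 1 of the libraries; 38.8% of all genes at that minimum were lower. Of 21 genes of the cytoskeleton and axon growth 15 were lower, led by the tubulin Tubb2a (499 and 212 CPM) and the growth cone protein Gap43 (605 and 305 CPM). The kinesins Kif5c (509 and 621 CPM) and Kif5a (122 and 211 CPM) were higher. Of 18 calmodulin and calcium genes 12 were lower, led by the calcium sensor Vsnl1 (22.6 and 11.8 CPM) and the calmodulin regulator Pcp4 (375 and 249 CPM). The kinases Camk2g (60 and 71.9 CPM) and Prkcb (58.6 and 75.6 CPM) were higher. Of 7 genes of the MEF2 family and neuronal activity 2 were lower, Egr1 (41.6 and 40.9 CPM) and Homer1 (70.6 and 70.3 CPM), both within counting error. Mef2c's relative Mef2d (35.8 and 45.5 CPM) and the deacetylase Hdac9 (129 and 167 CPM) were higher. None of 14 S100 and annexin genes reached the minimum.

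The sorting receptors related to Sorcs1, Sort1 (126 and 163 CPM) and Sorl1 (125 and 178 CPM), were both higher. Of 17 immunoglobulin adhesion genes 7 were lower, among them Ncam2's relative Ncam1 (1142 and 953 CPM) and Cntn1 (111 and 82.7 CPM), and Cntn2 (119.7 and 228 CPM) and Dscaml1 (242 and 329 CPM) were higher. Of 27 synaptic genes 8 were lower, with Syt4 (266 and 165 CPM), and 19 were higher, with the glutamate receptor Gria1 (111 and 164 CPM) and the complexin Cplx2 (143 and 270.1 CPM). Of 18 young neuron genes 10 were lower, with Hmgn2 (185 and 85.7 CPM) and Tmsb10 (2471 and 1461 CPM), and the proneural factors Neurod1 (145 and 172 CPM) and Neurod2 (326 and 408 CPM) were higher. Of the score's later genes 6 of 11 were lower, with Sncb (36.4 and 22.6 CPM) and Stmn3 (728 and 531 CPM), and Gria2 (1041 and 1468 CPM) and Kcnq1ot1 (142 and 209 CPM) were higher. Of its earlier genes 4 of 10 were lower, with Hmgn2 and Tubb2b (3464 and 2426 CPM), and Unc5d (2450.2 and 2869.7 CPM) and Eomes (71.5 and 98.3 CPM) were higher.

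Markers of other cell types were measured in the same excitatory sums, with no minimum level. Of all genes at 50 CPM or more, 37.6% were lower there. Of 10 Cajal-Retzius markers 10 were lower in the knockout library, summed to 88.1 and 50.3 CPM, with 1 at 0 there. Of 6 ependymal markers 6 were lower, summed to 7.25 and 1.39 CPM, with 2 at 0. Of 8 erythroid markers 7 were higher, summed to 846 and 1638 CPM. Low lists leaned both ways. Higher were 7 of 8 meningeal fibroblast markers (4.85 and 7.06 CPM), 6 of 7 border macrophage (20 and 26.1 CPM) and 6 of 8 endothelial (10.1 and 11.3 CPM). Lower were 6 of 8 oligodendrocyte lineage markers (64.2 and 54.5 CPM). Cells called Cajal-Retzius-like numbered 37 and 1. The part of these cells or of their free RNA in the ratios was not tested.

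The genes whose pattern was most like each of the 8 were found over 64 class or cluster sums, by Pearson correlation of the log2 level. All sums come from the same 2 libraries, so the values are a description. Nefl was most like Nrgn (0.92) and Arhgdig (0.85), and Nefm like Nefl (0.79) and Lmo3 (0.79). Nrgn was next closest to Nwd2 (0.88), and Arhgdig to Caly (0.86) and Lrrc73 (0.85). Mef2c was most like Sla (0.81), itself a marker used to name the class, and Adap1 (0.77). Sorcs1 was most like Ano3 (0.76) and Cdh6 (0.74), and Ncam2 was close to Dpp6 (0.86). S100a10 had the weakest matches, Sidt1 (0.65) and Ndrg1 (0.65). Among the 8 genes the correlation ran from 0.24 (Nefm and S100a10) to 0.92 (Nefl and Nrgn).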

How the data were processed

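The deposited files hold raw UMI counts per gene and cell from 10x Genomics 3′ libraries, made by the authors; the submitters' processing notes name Cell Ranger 7.1.0 and the build mm10. The 3 features that are reporter or transgene sequences were kept out of totals. Cells with 1000 or more UMIs and at most 10% mitochondrial counts were kept. Scrublet doublets, at an expected 0.80% per 1000 barcodes, were removed. Cells were clustered in scanpy 1.11.5 (2000 variable genes, 30 components, 15 neighbours, Leiden resolution 1), without the 8 genes, and excitatory cells again with 1500 variable genes scaled within each library. Clusters were named from markers, with a minimum score and a detection rule set after seeing the data, so names may differ from the study's. 4 of 32 clusters stayed unnamed. Within the excitatory class, 1 cluster was led by interneuron genes and 1 by haemoglobin genes.

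UMIs were summed per class and library. Intervals are exact Poisson for levels, exact conditional for ratios and Clopper-Pearson for shares. The intervals were run on simulated Poisson counts, the distribution they assume, so their coverage there was set in advance. That run leaves out the spread between cells and between animals. The 8 genes, the lists and the tests were chosen with earlier results of these data known. From each list the 2 lowest and 2 highest ratios are named, and for each gene the 2 genes most like it, except for some items that are not reported here. Alternatives changed the cell filter, doublets, clustering, scaling, prior, depth and sex pattern. Gene positions are those of GENCODE vM21 on mm10.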

Additional observations from a re-analysis of the deposited data

Results flagged for a closer look

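Nrgn, Sorcs1 and Ncam2 were lower in the knockout library in female-pattern excitatory cells and higher in male-pattern ones, so that their log2 ratios differed by 2.58, 1.98 and 1.39. Ncam2 stood at 233 and 139 CPM in female-pattern and 89.6 and 144 CPM in male-pattern cells. The difference between the patterns was not tested. The layer 5-like cluster took 4.34% of female-pattern and 1.6% of male-pattern excitatory cells in the wild-type library, and 2.61% and 2.75% in the knockout library. The male-pattern cells in that cluster numbered 6 for wild-type and 33 for knockout. Sorcs1 was lower in excitatory neuron-like cells and higher in erythroid-like cells, with a log2 ratio of 1.06 from 13 wild-type and 49 knockout UMIs. The median log2 ratio of all 863 genes at 50 CPM or more in erythroid-like cells was 0.76. That difference between classes was not tested either.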

How the results depend on the processing

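All values here are log2 ratios of knockout to wild-type unless a unit is given. The median of the genes over excitatory neuron-like cells, -0.86, was above 0 with doublets kept (0.16), at clustering resolution 0.5 (0.11) and in male-pattern cells (0.45). In the first 2 settings the layer 5-like cells lay in clusters left unnamed. With unnamed clusters that scored highest as excitatory put back, an alternative chosen after seeing the data, the medians were -0.89 and -0.83. It moved to -0.99 with a stricter cell filter, -0.94 in female-pattern cells, -0.47 as a mean over cells, -0.73 in cells with 3 or more markers, -0.33 after thinning and -0.54 without the layer 5-like cluster, also chosen after seeing the data. The cause of these shifts was not tested.

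With doublets kept the values above 0 were Nefl 0.13, Nefm 0.76, Mef2c 0.14, Arhgdig 0.19, Sorcs1 0.42 and Ncam2 0.80. At resolution 0.5 they were Nefl 0.062, Nefm 0.59, Mef2c 0.15, Arhgdig 0.25 and Sorcs1 0.19. In male-pattern cells they were Nefl 0.54, Nefm 0.35, Nrgn 1.22, Arhgdig 0.042, Sorcs1 1.17 and Ncam2 0.66. Nefm was also above 0 as a mean over cells (0.13), after thinning (0.10) and without the layer 5-like cluster (0.10), and its share of cells differed by -0.39 percentage points without thinning. S100a10 was below 0 in 19 of 19 settings, from -1.99 to -0.10. All of them use excitatory cells of the libraries in which the gene was chosen, so the count is a description. In male-pattern cells S100a10 was at -0.15, with a knockout to wild-type ratio of 0.887 (0.67 to 1.18), within counting error.

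The median over excitatory clusters, -0.01, was 0.0029 at resolution 2, 0.014 without scaling within libraries and 0.019 with doublets kept. The reweighted median, -0.29, was -0.40 at resolution 0.5 and 0.061 with doublets kept. The median of the middle score group was -1.75 when cells were thinned to 1000 UMIs. No paired analysis was possible because each genotype has 1 library.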
